A study of Drosophila melanogaster with 4 samples.

Results

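The Hox gene complexes of Drosophila melanogaster lie on chromosome arm 3R, and the clusters of H3K9me3 enrichment inside them are described here. Members were the clusters whose midpoint fell in 2 stretches of 3R on FlyBase release 5. The ANT-C stretch, from 2400001 to 2900000, holds the Antennapedia complex with lab, pb, Dfd, Scr and Antp. The BX-C stretch, from 12400001 to 12900000, holds the bithorax complex with Ubx, abd-A and Abd-B. Replicate 1 had 33 member clusters of 221 on 3R and 3258 in all. Replicate 2 had 29 of 248 on 3R and 3287 in all, and the combined list had 108 of 543 on 3R and 4060 in all.

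Both groups of samples came from nuclei of wild-type Oregon-R (Oregon-R-modENCODE) third-instar larvae with no treatment: 2 ChIP libraries for trimethylated lysine 9 of histone H3 (H3K9me3) and 2 Input libraries. A cluster is a stretch of significant enrichment called by the authors, who deposited 1 list per ChIP library and 1 combined list for the replicate set, each cluster with a score on an unstated scale. Every sample title, ChIP and Input, carries the words 'new lot' without saying of what. The Input libraries come without lists here, and read depth is unknown. The labels do not say that the replicates came from separate animals, so the SD over them may be technical.

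Hox genes encode homeodomain transcription factors that give body segments their identity along the head-to-tail axis, and their order on the chromosome follows the order of the segments they pattern. In cells where a Hox gene is off, Polycomb group proteins hold it silent and mark it with H3K27me3. H3K9me3 is the mark bound by heterochromatin protein 1 and is best known from pericentromeric heterochromatin. The larvae hold cells in which a given Hox gene is on and cells in which it is off. A weak mark in many cells and a strong mark in few cells cannot be told apart in such chromatin.

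In the RefSeq gene table, which is on release 6, all 8 Hox genes were found on 3R in the order named above. The lab gene, which acts in the most anterior head segment of the set, comes first after agt. The pb gene is needed for the mouthparts, and 9 genes lie between lab and pb, mostly the Ccp84A larval cuticle genes. Between pb and Dfd, a gene of the maxillary and mandibular head segments, lie zen2, zen and bcd, homeobox genes that no longer act as Hox genes, and the cell adhesion gene Ama. The mir-10 gene lies between Dfd and Scr, which patterns the labial and first thoracic segments. The segmentation gene ftz lies between Scr and Antp, the gene of the middle thorax. In the bithorax complex, Ubx, the gene of the posterior thorax, comes first after modSP. The non-coding RNA gene bxd lies between Ubx and abd-A, and mir-iab-4 and mir-iab-8 lie between abd-A and Abd-B, which pattern the anterior and posterior abdomen. The table is on another release than the clusters, so no cluster was assigned to a single gene, and the files hold no gene positions against which the names of the stretches could be checked.

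Clusters were packed into both Hox stretches at a similar level, and none had a score of 1 or more. The ANT-C stretch was covered at 6.42% in replicate 1 by 18 clusters and at 5.62% in replicate 2 by 12 clusters, a mean of 6.02% ± 0.567 (SD, n = 2). The BX-C stretch was covered at 6.03% in replicate 1 by 15 clusters and at 6.21% in replicate 2 by 17 clusters, a mean of 6.12% ± 0.125 (SD, n = 2). The combined list set the stretches apart, with 43 clusters over 17.6% of the ANT-C stretch and 65 clusters over 27.2% of the BX-C stretch. The stretches were chosen by the cluster counts, coverage, widths and scores of these same lists. These values are therefore a description, and no test was computed.

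**Figure D1:**
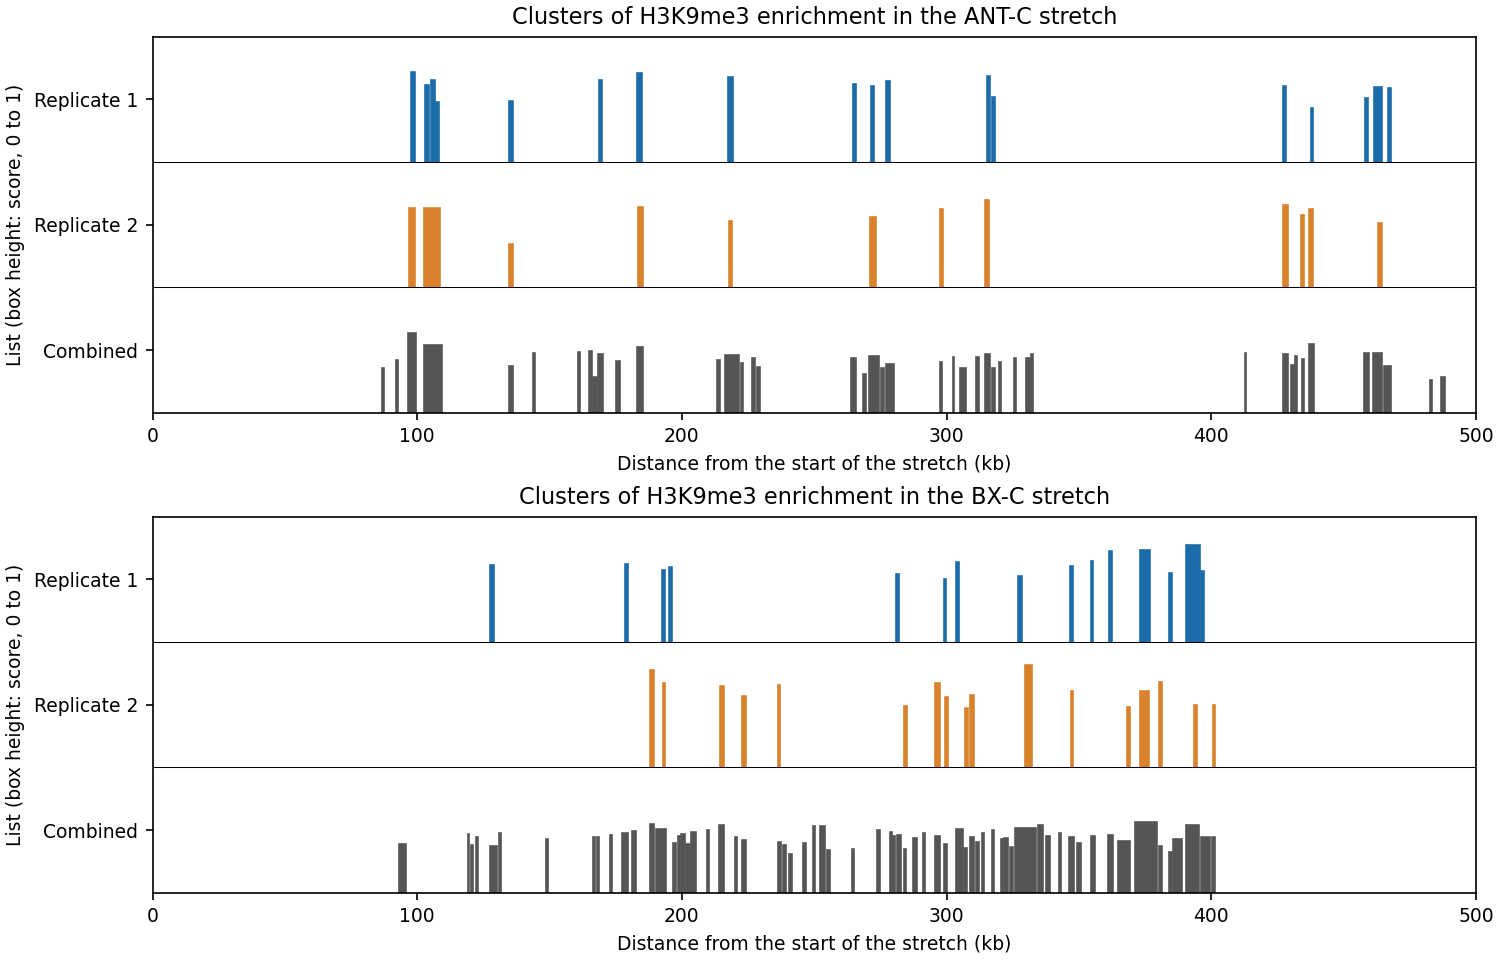
Positions of member clusters in the ANT-C stretch (top) and the BX-C stretch (bottom) as distance in kb from the start of each 500 kb stretch. Each box is 1 cluster, its width to scale and its height its score from 0 to 1, with a row for each list. The combined clusters crowd between about 300 and 400 kb in BX-C, and no list has a cluster in the ANT-C piece from 350 to 400 kb.

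In the ANT-C stretch, the clusters of replicate 1 ran from 2497122 to 2867896 and those of replicate 2 from 2496677 to 2864540. Their outer limits lay close to each other at either end. The highest score of replicate 1 was 0.724, in the cluster from 2497122 to 2499314. Replicate 2 had a cluster there from 2496677 to 2499212 with a score of 0.642, and the combined cluster from 2496293 to 2499375 had the highest combined score of either stretch, 0.644. The site was thus found in both replicates. The combined list of the same libraries, which overlapped every replicate cluster of the stretches, is no separate observation of it. The widest replicate cluster of the stretch came next, from 2502336 to 2508616 in replicate 2, at 6281 bp and a score of 0.639. In replicate 1 the same ground held 3 separate clusters of 2047, 1711 and 1510 bp with scores of 0.621, 0.663 and 0.491. The combined list joined them into a cluster of 7296 bp, the widest combined cluster of the stretch.

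The ANT-C clusters next in score were seen in both replicates. The site from 2582799 to 2584897 in replicate 1 had a score of 0.721 and its partner in replicate 2, from 2582978 to 2585373, had 0.650. The cluster from 2714272 to 2715841 was the highest of replicate 2 at 0.707, against 0.693 for the cluster of replicate 1 from 2714833 to 2716217. At the site from 2617141 to 2619356, replicate 1 scored 0.688 and replicate 2 scored 0.542. The clusters of replicate 1 from 2568216 to 2569770, at 0.663, and from 2676899 to 2678475, at 0.652, had no overlap in replicate 2. The weakest replicate cluster of the stretch was that of replicate 2 from 2534463 to 2536252, at 0.357, against 0.494 in replicate 1. Wide clusters also lay from 2860946 to 2864343 in replicate 1, at 3398 bp and a score of 0.611, and from 2670808 to 2673363 in replicate 2, at 2556 bp and a score of 0.569. Both had a partner in the other replicate.

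Part of the ANT-C stretch was empty. No list had a cluster in the first 50 kb or in the 50 kb piece from 2750001 to 2800000. The longest gap between neighbouring clusters was 108.2 kb in replicate 1, from 2718417 to 2826627. It was 111.0 kb in replicate 2, from 2715842 to 2826812, so both replicates left the same ground free. In the combined list the gap was 79.5 kb, from 2732775 to 2812250. The most covered piece of the replicates was that from 2500001 to 2550000, at 14.1% in replicate 1 and 16.1% in replicate 2. The combined list peaked instead from 2650001 to 2700000, at 28.7%, where the replicates had 9.06% and 8.00%.

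In the BX-C stretch, the clusters of replicate 1 ran from 12526992 to 12797255 and those of replicate 2 from 12587442 to 12801478. The widest replicate cluster was that of replicate 1 from 12790114 to 12795623, at 5510 bp with a score of 0.780. Replicate 2 had a cluster of 1810 bp inside it, from 12792966 to 12794775, with a score of 0.506. The cluster of replicate 1 from 12772515 to 12776915 measured 4401 bp and scored 0.743. Replicate 2 had its own widest BX-C cluster there, from 12772662 to 12776532, at 3871 bp and 0.617. Both sites lay in the piece from 12750001 to 12800000 and were wider in replicate 1, with a higher deposited score.

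Other high-scoring BX-C clusters had no partner in the second list. The cluster of replicate 2 from 12729406 to 12732087 had the highest replicate score of either stretch, 0.828, and replicate 1 had no covered base in it. The cluster of replicate 2 from 12587442 to 12589617, at 0.789, was likewise free of replicate 1 clusters. So was that from 12695345 to 12697609, at 2265 bp and a score of 0.685. In replicate 1 the cluster from 12760806 to 12762505, at 0.734, had no covered base in replicate 2. The combined list covered 97.7% of the second of these clusters and the whole of the other 3.

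Along the BX-C stretch, coverage in the combined list rose from piece to piece and then dropped. The 50 kb pieces from 12450001 to 12650000 were covered at 5.57%, 17.7%, 35.3% and 37.0%, and the next 3 at 38.5%, 65.3% and 69.6%. The piece from 12750001 to 12800000, the last of these, was also the most covered in each replicate, at 31.9% in replicate 1 and 17.0% in replicate 2. The piece that follows was covered at 3.03% in the combined list, and the last 50 kb of the stretch held no cluster in any list. Replicate 1 had no cluster from 12600001 to 12650000, where replicate 2 had 3 and the combined list 12. Replicate 2 in turn had none from 12500001 to 12550000, where replicate 1 had 1.

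**Figure D2:**
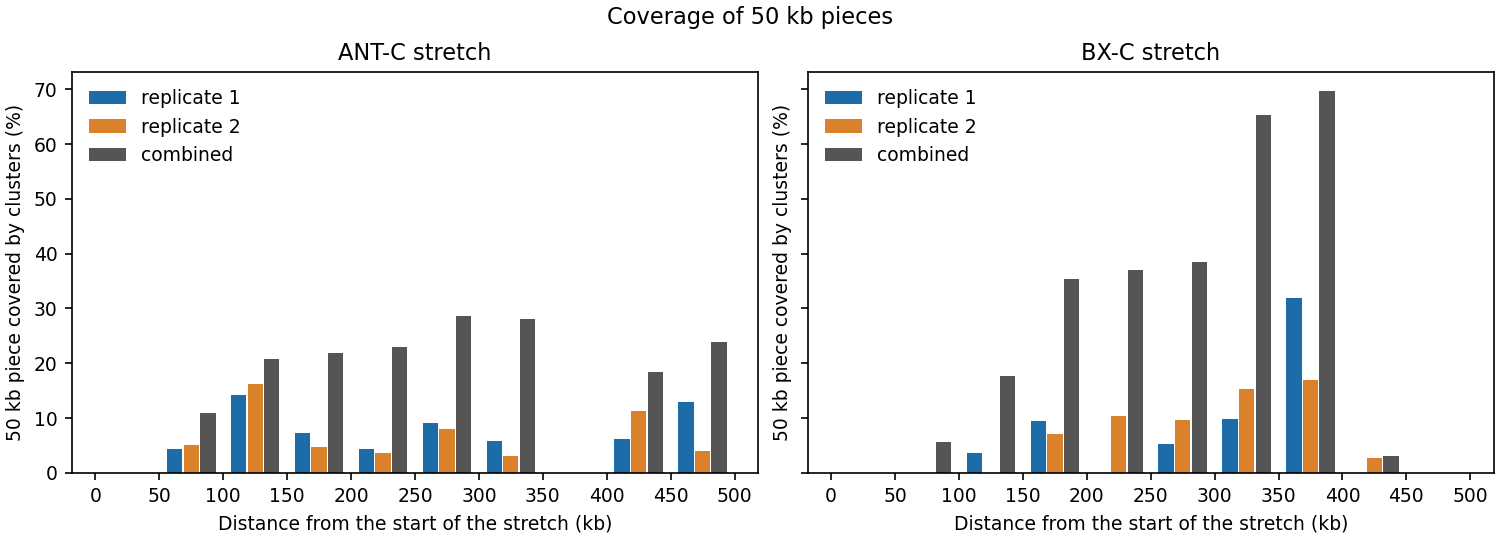
Percent of each 50 kb piece covered by clusters (y) against distance from the start of the stretch in kb (x), for ANT-C (left) and BX-C (right), with 1 bar per list. Combined coverage in BX-C reaches 69.6% in the piece from 350 to 400 kb and 3.03% in the next, while in ANT-C no piece exceeds 28.7%.

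The stretches were then set beside the other windows of 3R. A grid of 55 windows of 500 kb, placed so that each stretch was 1 window, left 53 others. Those had a median of 3 clusters in each replicate and a pooled coverage of 1.52% in replicate 1 and 1.83% in replicate 2. The ANT-C stretch exceeded this pooled coverage 4.22-fold in replicate 1 and 3.08-fold in replicate 2, a mean of 3.65 ± 0.809 (SD, n = 2). For BX-C the ratios were 3.96 and 3.40, a mean of 3.68 ± 0.399 (SD, n = 2). Together the stretches make up 3.58% of the arm and held 14.9% of its clusters in the list of replicate 1, 11.7% in that of replicate 2 and 19.9% in the combined one. Of the covered bases of 3R they held 12.2%, 9.86% and 17.8%.

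The Hox stretches were among the most covered windows of 3R, though in the replicates not the most covered. The window from 400001 to 900000, near the centromere end of the arm, led in replicate 1 at 8.20% and in replicate 2 at 11.0%. ANT-C came at place 2 and BX-C at place 3 in replicate 1. In replicate 2 BX-C came at place 2 and ANT-C at place 4, behind the window from 3400001 to 3900000 at 5.78%. In the combined list BX-C was at place 1 of 55, ahead of the window from 400001 to 900000 at 18.7%, with ANT-C at place 3. BX-C and ANT-C held the most combined clusters, 65 and 43, against 24 in that window. The places of both stretches thus changed between lists. The first 400000 bp of the arm lie outside the grid. Replicate 1 covered 11.4% of them, replicate 2 14.1% and the combined list 22.1%. The windows with the lowest coverage had no cluster at all, 3 in replicate 1 and 4 in replicate 2.

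**Figure D3:**
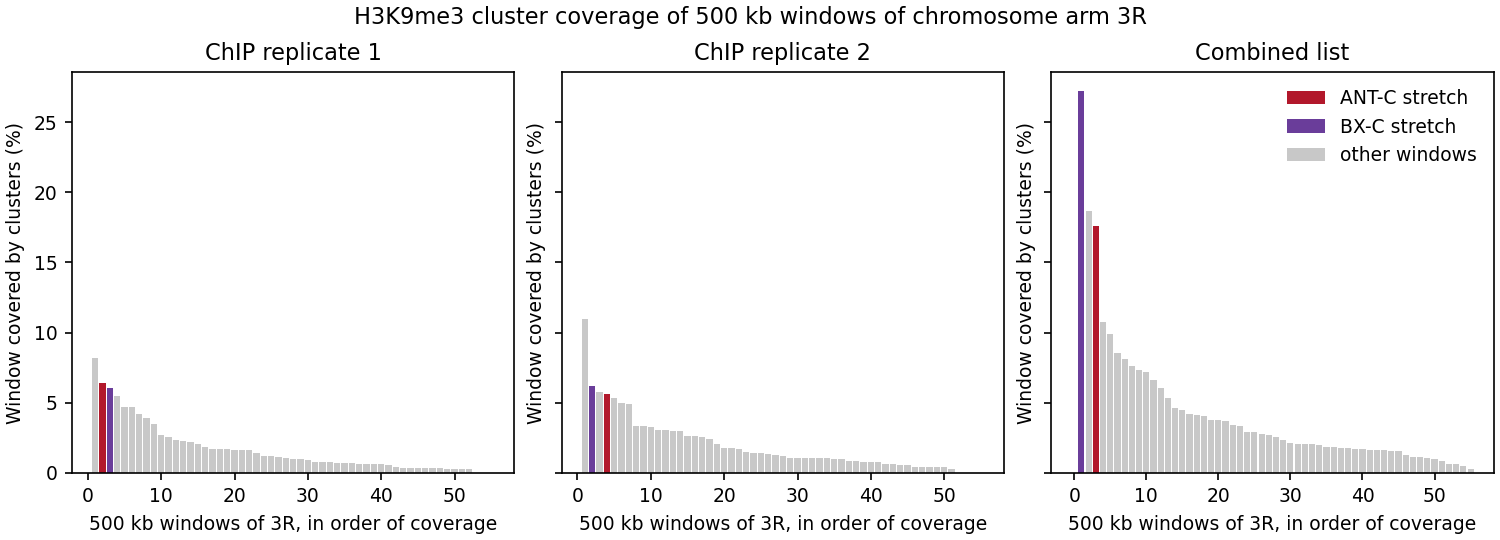
Percent of each of 55 windows of 500 kb on 3R covered by clusters (y), in falling order (x), with a panel for each list on a shared axis. ANT-C and BX-C hold places 2 and 3 in replicate 1, places 4 and 2 in replicate 2, and places 3 and 1 in the combined list.

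Windows beside the Hox stretches were less covered than the stretches, to differing degrees. The window before BX-C, from 11900001 to 12400000, had a coverage of 1.81% in the first replicate and 1.76% in the second. The window after it, from 12900001 to 13400000, had no cluster in either replicate and 0.610% combined coverage. The windows before and after ANT-C were covered at 2.58% and 1.42% in replicate 1 and at 3.37% and 1.39% in replicate 2. The clusters nearest to the limits of the stretches show how much the choice of limits matters. The last cluster before BX-C ended 152.4 kb outside it in replicate 1 and 167.5 kb in replicate 2, and the first after it began 590.4 kb and 559.9 kb outside. The first clusters inside lay 127.0 kb and 187.4 kb from the edge. The ANT-C stretch, by contrast, ended close to a strong cluster. The last inside it stopped 32.1 kb short of the edge in replicate 1 with a score of 0.598. The next cluster began 5.51 kb past the edge, from 2905508 to 2908581, with a score of 1.56. In replicate 2 these scores were 0.524 and 1.70.

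Scores in the complexes were ordinary for the arm in the middle and lacked its upper range. The median score of ANT-C clusters was 0.617 in replicate 1 and 0.636 in replicate 2, and that of BX-C clusters 0.615 and 0.617. The other windows had medians of 0.628 and 0.607, so the Hox medians lay below them in replicate 1 and above them in replicate 2. On 3R, 13.1% of replicate 1 clusters, 13.3% of replicate 2 clusters and 11.2% of combined clusters had a score of 1 or more. In the Hox stretches 0 of 33, 0 of 29 and 0 of 108 did. The upper range of the combined list was not always backed by a replicate cluster. In the other windows, combined clusters scored up to 5.05 where they overlapped both replicate lists and up to 4.24 where they overlapped neither. Some high scores recurred in narrow clusters, as at 3920671 and 20555906, each 1001 bp wide with a score of 3.24. Of 3R clusters, 4.98%, 7.26% and 20.6% reached the median score of their whole list. In the Hox stretches 0, 0 and 1 did, the last being the ANT-C cluster from 2496293 to 2499375. BX-C, first of the 55 windows by combined coverage, was at place 44 by its highest combined score, 0.570, and ANT-C was at place 41 with 0.644. The replicate lists placed them nearer the middle by highest score. BX-C was at place 22 in replicate 1 and 24 in replicate 2, and ANT-C at 29 and 32.

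**Figure D4:**
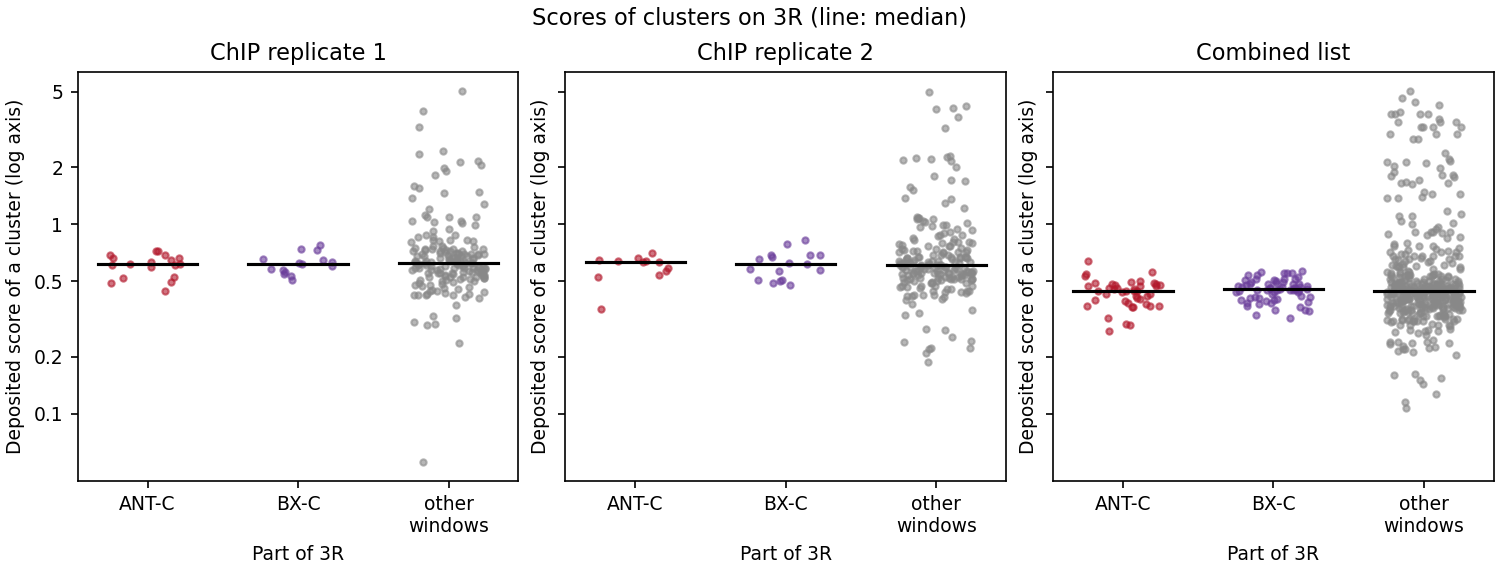
Deposited score of each cluster (y, log axis) in ANT-C, BX-C and the other windows of 3R (x), by list, with a line at each median. Hox clusters sit near the median of the other windows, at 0.357 to 0.828 in the replicates, and none reaches 1.

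Narrow clusters made up most of the Hox members. On 3R 57.9% of replicate 1 clusters, 51.6% of replicate 2 clusters and 58.9% of combined clusters were under 2000 bp. In BX-C 13 of 15 and 13 of 17 were, and in ANT-C 13 of 18 and 6 of 12. The combined list had 45 of 65 in BX-C and 28 of 43 in ANT-C. The ANT-C share of replicate 2 was near that of the arm. Median widths were 1590.5 and 1974.5 bp in ANT-C and 1652 and 1599 bp in BX-C, against 1947 and 1995 bp in the other windows. The mean of these medians was 1625.5 bp ± 37.5 (SD, n = 2) in BX-C, 1782.5 bp ± 271.5 (SD, n = 2) in ANT-C and 1971 bp ± 33.9 (SD, n = 2) in the other windows.

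The overlapped share of clusters was lower in BX-C than in ANT-C or over the arm. Over all of 3R, 73.8% of replicate 1 clusters shared at least 1 bp with replicate 2, and 63.3% of replicate 2 clusters did so with replicate 1. In ANT-C 12 of 18 replicate 1 clusters (66.7%, exact 95% binomial interval 41.0 to 86.7%) and 10 of 12 replicate 2 clusters (83.3%, 51.6 to 97.9%) were. In BX-C 5 of 15 (33.3%, 11.8 to 61.6%) and 5 of 17 (29.4%, 10.3 to 56.0%) were. With an overlap of 50 percent of both clusters required, the ANT-C shares were 50% and 75% and those of 3R 66.5% and 59.3%. The intervals treat neighbouring clusters as independent, and the difference between BX-C and the arm was not tested. In the other windows 76.2% of the replicate 1 clusters with a score under 1 were overlapped, and 64.0% of those of replicate 2.

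**Figure D5:**
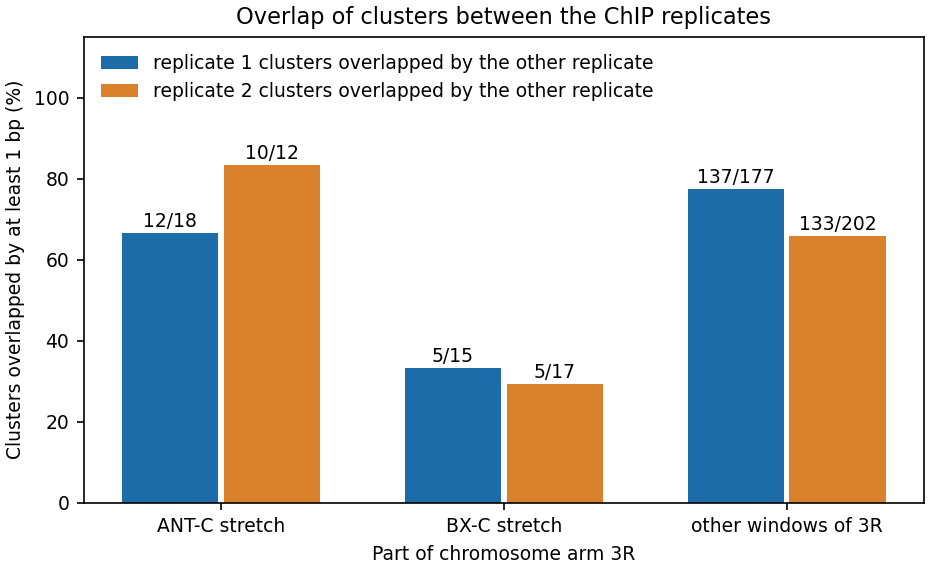
Percent of clusters overlapped by the other replicate by at least 1 bp (y) in ANT-C, BX-C and the other windows of 3R (x), with the counts above the bars. BX-C stands at 5 of 15 and 5 of 17, below the 137 of 177 and 133 of 202 of the other windows.

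Counted by base, the replicates shared 20.0 kb of the 40.1 kb that either covered in ANT-C, a Jaccard index (shared over total bases) of 0.499. In BX-C they shared 9.24 kb of 51.9 kb, an index of 0.178, and in the other windows the index was 0.539. The 5 BX-C sites found by both lay at 12592124, 12698621, 12746253, 12772515 and 12790114, given by the start of the replicate 1 cluster. The scores of these pairs differed by a median of 0.102, with replicate 2 higher in 3. In ANT-C the 12 pairs, which involve 10 clusters of replicate 2, differed by a median of 0.0770, with replicate 2 higher in 5. Whether the replicate lists share a score scale is unknown, so these differences describe the deposited values only.

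Clusters of BX-C without a partner lay at varied distances from the other replicate. The 10 of replicate 1 lay 0.922 to 58.6 kb, with a median of 1.92 kb, from the nearest cluster of replicate 2, and 6 lay within 5 kb. The 12 of replicate 2 lay 0.922 to 39.6 kb, with a median of 2.71 kb, from replicate 1, and 9 lay within 5 kb. In the other windows the medians were 10.6 kb for 40 clusters and 16.8 kb for 69, and 37.5% and 31.9% lay within 5 kb. Short distances were also seen in ANT-C. There 5 of 6 such clusters of replicate 1 lay within 5 kb, with a median of 3.41 kb, and 1 of 2 of replicate 2, with a median of 9.28 kb. BX-C held 15 clusters in replicate 1 and 17 in replicate 2, against a median of 3 per other window in each. The part of this density in the distances was not tested. Unmatched and matched BX-C clusters had close median scores, 0.613 and 0.615 in replicate 1 and 0.619 and 0.617 in replicate 2. All 33 and 29 replicate clusters of the stretches were overlapped by a combined cluster. The least covered was that of replicate 1 from 12594788 to 12596196, of which the combined list held 4.19%.

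The combined list held much in the complexes that neither replicate list did. On 3R 26.9% of combined clusters overlapped both replicates and 47.1% overlapped neither. In ANT-C 10 of 43 overlapped both, 8 overlapped 1 and 25 (58.1%) overlapped neither. In BX-C 6 of 65 (9.23%) overlapped both, 21 overlapped 1 and 38 (58.5%) overlapped neither. The median width of those in neither was 1262 bp for ANT-C, 1429.5 bp for BX-C and 1319 bp for the other windows. No replicate list holds a cluster under 1301 bp, and the combined list goes down to 1001 bp. Of the clusters that overlapped neither, 13 in ANT-C and 16 in BX-C were under 1301 bp, and 12 and 22 were not. In the other windows 88 of 182 were under 1301 bp and 94 were not. The combined list covered 4.45 times the mean of the replicates in BX-C, the highest ratio among the 28 windows with a mean replicate coverage of at least 1%. In ANT-C it covered 2.92 times that mean, at place 5 among those 28. Of all 52 windows with any replicate coverage, 16 had a higher ratio than ANT-C and 2 a higher one than BX-C. Those 2, from 23400001 and from 19400001, had ratios of 5.94 and 4.80 on replicate means of 0.299% and 0.327%. The sources used here do not give how the lists were combined, and the part of this step in the ratios was not tested.

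The 3 widest combined clusters of BX-C lay at sites that both replicates had marked. That from 12770948 to 12779579 measured 8632 bp with a score of 0.570, the highest combined score of the stretch. Replicate 1 covered 51.0% of it and replicate 2 44.8%. The cluster from 12725549 to 12733964, of 8416 bp and a score of 0.525, joined ground that the replicates had marked in different places. Replicate 1 covered 20.5% of it and replicate 2 31.9%, with no base in common. The next, from 12789949 to 12795496, lay 97.0% within replicate 1 clusters and 32.6% within those of replicate 2.

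Combined clusters followed each other more closely in BX-C than in ANT-C. The median gap between neighbours was 1158 bp in BX-C and 2725 bp in ANT-C, and 31 of 64 gaps in BX-C were under 1000 bp against 12 of 42 in ANT-C. Gaps in the other windows are not given here, so what is ordinary for the arm cannot be read from these counts. When clusters less than 5 kb apart were joined into runs, 3R had 310 runs. The longest ran in BX-C from 12673333 to 12801514, over 128.2 kb with 34 clusters that covered 64.5% of it. Replicate 1 had 11 clusters over 18.4% of this run and replicate 2 had 12 over 17.4%. A second BX-C run from 12566029 to 12624162 spanned 58.1 kb with 16 clusters and was at place 3 by length on the arm. Between them in length stood a run from 648209 to 729051, of 80.8 kb and 13 clusters. The longest ANT-C run, from 2696975 to 2732774, was at place 5 with 35.8 kb and 10 clusters. Outside the complexes 224 of 291 runs were single clusters, whereas 4 of 12 in ANT-C and 3 of 7 in BX-C were. The combined list held 65 clusters in BX-C and 43 in ANT-C, against a median of 6 per other window. The part of this density in the runs was not tested.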

How the data were processed

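The ChIP-seq libraries were made from formaldehyde-treated larval chromatin per the labels' protocols. Bowtie 0.12.7 appears in the submitters' processing notes, with no role. Per the file headers, the build is FlyBase release 5. The sources used here give neither the caller of the clusters nor its threshold. The score of each cluster was deposited by the authors with no word on its scale. It served to describe clusters and to filter them within a list. Rankings and pairs over both replicates set deposited values side by side, though a shared scale is unknown.

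Here clusters were assigned to windows by their midpoint and coverage was counted by base. The grid ran from 400001 to 27900000 of the 27905053 bases of 3R. Overlap meant at least 1 bp. Intervals are exact (Clopper-Pearson) at 95% and cover counting error only. Coverage and overlap code was tested on simulated data. The groups came from the sample titles. Members, lists and measures were chosen with earlier results of these data known, and the stretches were chosen on these lists, so nothing was tested. The rule for named items took the 8 Hox genes, listed neighbours for gene order, the 5 widest and 5 highest-scoring replicate clusters per stretch, their combined clusters, and the windows with the most and least coverage. Other clusters, and the joining of clusters within 5 kb, were chosen after their values were seen. Protein sequences named in that rule were not analysed here. The scripts ran on scipy 1.17.1, pandas 2.3.3, numpy 2.4.6 and Python 3.11.15.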

Additional observations from a re-analysis of the deposited data

How the results depend on the processing

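Of 62 alternatives over 14 results, 20 left out 1 of the 2 replicates, which cannot move a mean by 1 SD. Of the other 42, 26 moved a result and 16 did not. Moved meant a change of a value by 1 SD between the replicates or more, or of a count by over 1.5 times. For an overlapped share it meant leaving its interval at 1 bp. Alternatives that took clusters overlapping the stretch held the same clusters as those taken by midpoint, so they could not move a result. Limiting each replicate list to scores at or above its median left coverage, count and coverage ratio at 0 in both stretches; the combined list kept 1 ANT-C cluster. With the 3R clusters at or above their median score, an alternative chosen after seeing the data, coverage was 3.27% in ANT-C and 3.48% in BX-C, with a mean of 7.5 clusters in each. The ratios to the other windows were then 3.17 and 3.39. With clusters of at least 2000 bp, coverage was 3.00% and 2.09%, the counts averaged 5.5 and 3, and the ratios were 2.83 and 2.01, the latter from 2.18 in replicate 1 and 1.85 in replicate 2. These filters lower coverage and counts by construction. The combined list gave coverages of 17.6% and 27.2%, 43 and 65 clusters, ratios of 4.93 and 7.63 and median scores of 0.443 and 0.454. It also gave a BX-C median width of 1684 bp. The cause of these changes was not tested. Without the 4 windows that start in the first 2 Mb of the arm the ratio was 4.18 for BX-C and 4.14 for ANT-C, since covered windows are left out. The last of these windows ends at 2400000, next to the ANT-C stretch. On a grid from base 1 the ratios were 3.39 for ANT-C and 3.42 for BX-C. An overlap of 50 percent of both clusters lowered the overlapped share of BX-C to 26.7% and 23.5% and that of ANT-C to 50% and 75%. These shares lay inside the intervals of the shares at 1 bp. Those intervals rest on the same few clusters and are wide, 11.8 to 61.6% for BX-C in replicate 1, so this cannot show that the shares are stable. Read depth is unknown, so how far depth limits the finding of weak clusters cannot be said. No paired analysis was possible because the Input group has no list here and nothing was compared between groups.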
